A study of Homo sapiens with 3 samples.

Results

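The interferon regulatory factors (IRF) are a small family of transcription factors, and their signal intensities were examined here in HDLM-2, L-428 and L-540, 3 cell lines of Hodgkin's lymphoma (HL). A transcript cluster, the feature of the array that summarizes the exons of a gene, was taken when its annotated gene symbol, alone or among several, was that of an IRF gene described here. This gave 9 of the 22011 clusters, for the 8 genes IRF1, IRF2, IRF3, IRF4, IRF5, IRF7, IRF8 and IRF9. The 22011 also hold 5171 clusters without a gene symbol, which need not each summarize a gene. Shares over all clusters include them. IRF3 had 2 clusters, a cluster of its own and one shared with the neighboring gene BCL2L12, in which the signals of both genes cannot be told apart. Members were chosen by name and not by their values. The array annotation and RefSeq place the genes on 8 chromosomes, from IRF2 on chromosome 4, IRF1 on 5, IRF4 on 6 and IRF5 on 7 to IRF7 on 11, IRF9 on 14, IRF8 on 16 and IRF3 on 19.

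RNA of each established cell line was hybridized to 1 Affymetrix Human Exon 1.0 ST array, and the cells were grown under standard conditions. The descriptions of the L-428 and HDLM-2 samples name a treatment of the cells, with the histone deacetylase inhibitor vorinostat, while that of L-540 names none and the methods of the study name no treatment for these arrays. A line and a possible treatment therefore cannot be told apart, and with 1 array per line there is no replicate error and no p-value. All values are linear signal intensities after robust multi-array analysis (RMA), and signals above 100 were called expressed. The study used this threshold for probe sets of endogenous retroviruses, and here it was applied to transcript clusters. Over all clusters the median signal was 7.16 for HDLM-2, 9.18 for L-428 and 7.41 for L-540, so comparisons were repeated after shifting the arrays to one median and after quantile normalization of the 3 arrays. A difference between 2 lines was called when it reached 4-fold with the higher signal above 100.

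All members of the family carry an amino-terminal DNA-binding domain with a conserved series of tryptophans, which recognizes GAAA repeats. IRF3, IRF5 and IRF7 are activated by phosphorylation downstream of pattern recognition receptors and switch on interferon genes, and IRF9 is the DNA-binding member of the complex through which type I interferons act. IRF1 is an interferon-inducible activator and IRF2 binds the same sites, mostly as its antagonist. IRF4 and IRF8 act in lymphoid and myeloid cells, where they bind DNA together with factors of the ETS and AP-1 families, and IRF4 protein (MUM1) is commonly seen in the malignant cells of HL.

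Promoter sequences show which members carry binding letters for these same pathways close to a start site. RefSeq windows of the assembly GRCh38.p14, from 250 bases before to 50 bases after an annotated start, were given for 5 of the 8 genes, namely IRF1, IRF4, IRF5, IRF8 and IRF9, in 9 windows of 300 bases. Windows for IRF2, IRF3 and IRF7 were not used here. Both strands were searched for the interferon-stimulated response element (GAAA, a pair of any bases and GAAA again), the STAT element TTCNNNGAA, the composite ETS and IRF element (GGAA, a pair of any bases and GAAA) and the shorter IRF element AANNGAAA. The last was chosen after the windows were seen, and it overlaps the composite element and the response element in its letters.

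The windows of IRF1 and IRF9 are shown because they are the members with a STAT element, on chr5:132490724-132491023 (minus strand) and chr14:24161015-24161314 (plus strand). Capitals mark the STAT element in both and, further downstream in IRF9, the short IRF element.
IRF1: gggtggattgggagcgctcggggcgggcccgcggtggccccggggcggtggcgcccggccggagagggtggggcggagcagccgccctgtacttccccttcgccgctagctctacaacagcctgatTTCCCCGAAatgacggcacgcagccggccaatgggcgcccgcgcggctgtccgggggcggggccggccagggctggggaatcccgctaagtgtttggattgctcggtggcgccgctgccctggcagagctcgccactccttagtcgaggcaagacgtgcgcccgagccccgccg
IRF9: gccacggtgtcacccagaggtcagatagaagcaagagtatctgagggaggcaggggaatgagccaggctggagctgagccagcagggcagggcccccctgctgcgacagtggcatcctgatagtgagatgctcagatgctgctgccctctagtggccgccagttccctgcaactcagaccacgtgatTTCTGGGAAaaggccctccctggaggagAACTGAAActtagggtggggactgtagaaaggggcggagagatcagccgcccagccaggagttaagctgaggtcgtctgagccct

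The STAT element began 124 bases before the start site in IRF1 and 63 bases before it in IRF9, and 7.66% of all 35116 windows hold it. Stretches of 30 bases are shown for IRF5 and IRF8, from chr7:128940626-128940655 and chr16:85902798-85902827 (both plus strand), because these are the members with a composite or short IRF element that read on the opposite strand, so the motif appears as its reverse complement.
IRF5: ggtctagccacTTTCGTTTCCcctggggcc
IRF8: tcccacggagcTTTCAGTTtgcactcaggg
In IRF5, the capitals mark the composite ETS and IRF element, which was found in 1 of its 4 windows and in 2.82% of all windows. The short IRF element overlaps it there. In IRF8, they mark the short IRF element, which 22.8% of all windows hold and which lay in both IRF8 windows, since these overlap. The first window held a further match 116 bases before its start site. The start sites of both IRF8 windows lie inside the annotated gene, downstream of its first base. None of the 9 windows held the full response element, which 3.57% of all windows hold, and the IRF4 window held none of the 4 elements. These matches describe letters only, and no binding was measured.

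IRF4 gave the strongest signal of the family in every line, IRF2 and IRF5 followed with signals on either side of the threshold, and the remaining members lay well below it. Signals of different clusters depend on their probes, so this order is not an order of RNA amounts. Of the 9 clusters, 3 were above 100 in L-540, namely IRF2, IRF4 and IRF5. In L-428, IRF2 and IRF4 were above 100, and in HDLM-2 only IRF4 was. Over all clusters, the share above 100 was 6.28% for HDLM-2, 10.2% for L-428 and 7.17% for L-540.

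**Figure D1:**
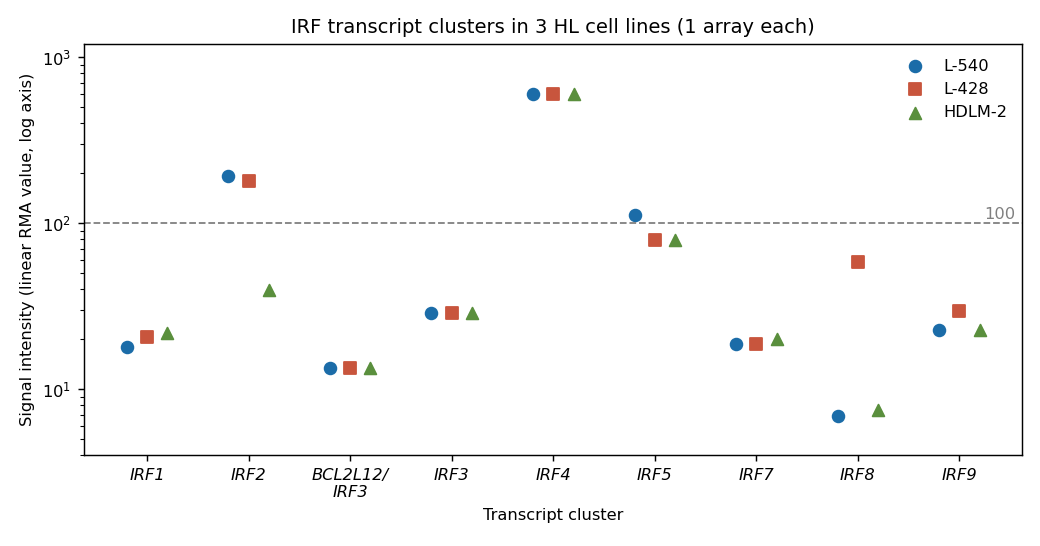
Signal intensity (linear RMA value on a log axis) of each of the 9 IRF clusters in L-540, L-428 and HDLM-2, 1 point per array, with a dashed line at 100. IRF2 sits at 191 in L-540 and at 39.5 in HDLM-2, IRF8 stands out in L-428 with 58.4, and the 3 points of IRF4 and of both IRF3 clusters lie at the same height.

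IRF4, the lymphoid member that drives plasma cell differentiation, had a signal of 598 for HDLM-2, 598 for L-428 and 598 for L-540. The deposited values are identical to the last digit in the 3 lines. Among the clusters with 1 gene it lay at the 99.6th percentile in HDLM-2 and L-540 and at the 99.5th in L-428. A tie of this kind is not read as equal expression, but it was uncommon among the strong signals of all clusters. Of the 696 clusters above 500 in at least 1 line, 4 had the same value in all 3 lines (0.575%), and IRF4 is one of them. Among all clusters 31.5% were tied in this way, and no other cluster on these arrays had the same value as IRF4. These shares include clusters without a gene symbol. Between L-428 and L-540, 48.2% of the clusters with 1 gene were equal, against 39.0% of all clusters. Ties among strong clusters with 1 gene were not counted apart. Scaling the arrays to one another broke the IRF4 tie, and L-428 then had the lowest IRF4 signal, with 513 after a shift to one median and 501 after quantile normalization. The shift moves every tied cluster alike, to a log2 difference of -0.31 for L-428 minus L-540, in IRF4 as in IRF3. The order after the shift therefore says nothing about IRF4 itself.

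IRF2, the antagonist of IRF1, was the member that differed most among those expressed. Its signal was 39.5 for HDLM-2, 180 for L-428 and 191 for L-540. L-540 and L-428 were thus close to each other, 1.06-fold apart, while HDLM-2 was 4.84-fold below L-540 and 4.55-fold below L-428. Its percentile was 88.8 for HDLM-2, 96.7 for L-428 and 98.2 for L-540. It was the only IRF cluster called lower in HDLM-2 than in L-540, 1 of 9 against 0.586% of all clusters, and the only one called lower there than in L-428, 1 of 9 against 2.93%. Among clusters above 100 in at least 1 of the lines compared, these shares were 7.23% and 26.4%. Both comparisons share the HDLM-2 array, and 78 clusters (0.354%) were called lower in it against each of the others. No IRF cluster was called higher in HDLM-2, where 0.273% of all clusters were called against L-540 and 0.427% against L-428. Between L-428 and L-540 none of the 9 was called, where 2.04% of all clusters were called higher and 0.472% lower in L-428. The balance of calls over all clusters moved with the scaling. Calls in favor of L-428 over L-540 made up 81.2% of that pair as deposited, 66.6% with one median and 55.7% after quantile normalization. Calls in favor of HDLM-2 made up 31.7%, 35.9% and 43.1% against L-540, and 12.7%, 25.3% and 41.3% against L-428.

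In the comparison with L-540, 323 of 22011 clusters had a more negative difference than IRF2 (1.47%). Among the 1784 clusters above 100 in at least 1 of these lines it was 101 (5.66%). In the comparison with L-428, 1577 of all clusters lay further down (7.16%). The call against L-428 was lost after the arrays were shifted to one median, where the log2 difference was -1.83, and after quantile normalization, where it was -1.39. HDLM-2 remained the lowest of the 3 lines for IRF2 under both scalings, with 43.4 and 50.7, and its call against L-540 was kept.

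The genes with the profile most like that of IRF2 were searched among 1127 others above 100 in at least 1 line, by the distance between log2 signals centered on their mean over the 3 lines. The nearest was EIF3M, a subunit of a translation initiation factor, at a distance of 0.161, with 72.6 for HDLM-2, 304 for L-428 and 300.2 for L-540. TNFSF10, which encodes the death ligand TRAIL, followed at 0.171 with 20.9, 106 and 95.1 in the same order. The third was YWHAB, a 14-3-3 protein, at 0.219 with 56.2, 221 and 221. With 3 points per profile, such likeness is a description of these arrays only.

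IRF8, which is needed for the development of several myeloid cells and acts in germinal center B cells, had a signal of 7.51 for HDLM-2, 58.4 for L-428 and 6.94 for L-540. L-428 was 8.41-fold above L-540 and 7.77-fold above HDLM-2 in the deposited values, while the other 2 lines were 1.08-fold apart. The signals in these 2 lines lay near the median of their arrays, so the size of the ratio depends on the lowest signals. With an offset of 50 added before the logarithm, the log2 difference of L-428 to L-540 of 3.07, and that of HDLM-2 to L-428 of -2.96, became 0.93 and -0.91, smaller in size than the -1.43 and -1.36 of IRF2 in HDLM-2. Because no IRF8 signal exceeded 100, neither difference was called. At any signal, 6.45% of all clusters were at least 4-fold higher in L-428 than in L-540, 8.49% were so against HDLM-2 and 4.65% against both. In the comparison with L-540, 488 clusters (2.22%) had a larger difference than IRF8. L-428 stayed the highest line under both scalings, 6.79-fold above the lowest line after the shift to one median and 5.83-fold, with a signal of 43.5, after quantile normalization. Among the clusters with 1 gene, IRF8 lay at the 87.6th percentile in L-428, at the 46.3rd in L-540 and at the 48.1st in HDLM-2.

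**Figure D2:**
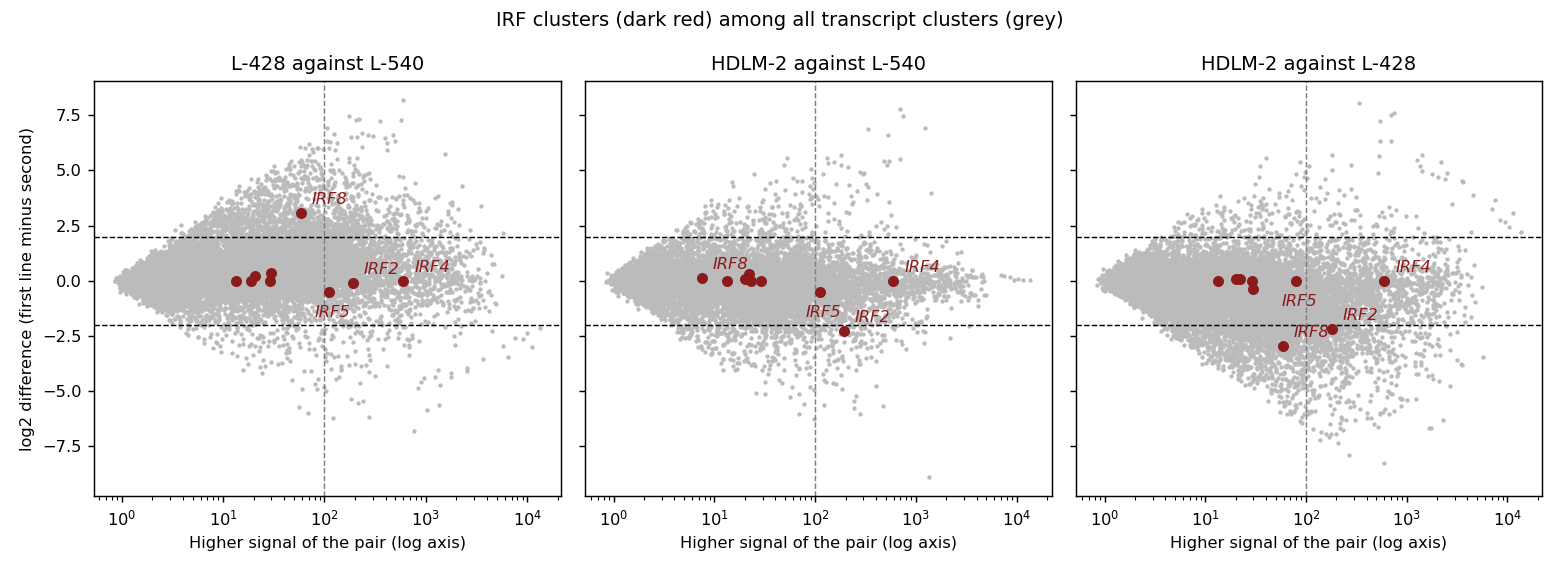
The log2 difference between 2 lines against the higher signal of the pair (log axis) for all 22011 clusters (grey) and the 9 IRF clusters (dark red), with dashed lines at 4-fold and at a signal of 100. IRF2 lies just beyond the lower line in both panels with HDLM-2, and IRF8 lies beyond a 4-fold line in both panels with L-428 but to the left of 100.

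IRF5, a factor downstream of Toll-like receptors that induces inflammatory cytokines, had 112 in L-540 and 79.4 in both L-428 and HDLM-2. L-540 was 1.41-fold above the other lines and was the only line above 100. L-540 kept the highest IRF5 signal under both scalings, but after quantile normalization HDLM-2 also passed 100, with 105, and L-428 had 59.0.

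IRF1 had a signal of 21.9 for HDLM-2, 20.6 for L-428 and 17.9 for L-540, so that the highest and lowest lines were 1.22-fold apart. Its value in L-428 was shared with 38 other clusters of that array. IRF9 had 22.8 for HDLM-2, 29.4 for L-428 and 22.8 for L-540, a ratio of 1.29, and 17 other clusters shared its value in L-428. Both members carry a STAT element in their promoter windows, and both were below 100 in each line. Their order was not stable. HDLM-2 had the highest IRF1 signal under each scaling, but L-428 lay above L-540 only in the values as deposited. IRF9 was highest in L-428 as deposited and after the shift to one median (25.2 against 25.1 in HDLM-2), and lowest there after quantile normalization.

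The differences of IRF1 and IRF2 can be set beside each other, since each is a difference between the same arrays. From L-540 to HDLM-2 the log2 difference was 0.29 for IRF1 and -2.28 for IRF2, so these genes were 2.57 apart on the log2 scale. From L-540 to L-428 the differences were 0.20 and -0.088, only 0.29 apart. The signal of IRF1 was below the threshold in each line, so this does not show whether IRF1 differed.

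IRF7, a factor that amplifies the interferon response, had 20.0 for HDLM-2, 18.7 for L-428 and 18.7 for L-540. The value in L-540 was shared with 82 other clusters and that in L-428 with 53. IRF3, which is present before infection and acts early, had 28.7 in all 3 lines, and the cluster shared by BCL2L12 and IRF3 had 13.3 in all 3. These ties give no order of the lines for IRF3, and for IRF7 they set only HDLM-2 apart. Of the 9 IRF clusters, 3 were identical in all lines, 3 had 2 distinct values and 3, those of IRF1, IRF2 and IRF8, had a different value in each line. Among all clusters, 45.0% had 3 distinct values.

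Counted over the family, 3 clusters were higher in L-428 than in L-540, 2 were lower and 4 were equal. For HDLM-2 against L-540 it was also 3 higher, 2 lower and 4 equal, and for HDLM-2 against L-428 it was 2 higher, 3 lower and 4 equal. Over all clusters, 38.0% were higher, 23.0% lower and 39.0% equal in L-428 against L-540, while HDLM-2 was higher in 25.6% and lower in 31.8% against L-540, and higher in 23.4% and lower in 40.2% against L-428. The balance of the family turned with the scaling. Over the 8 genes, L-428 was higher than L-540 for 2 and lower for 6 after the shift to one median, and higher for 1 and lower for 7 after quantile normalization. The shift moves every tied gene alike. IRF3, IRF4 and IRF7, equal in these lines as deposited, each went to a log2 difference of -0.31 by the shift alone. HDLM-2 was higher than L-428 for 5 and lower for 3 after the shift, and for 6 and 2 after quantile normalization. In the deposited values, the median log2 difference of the family was 0 in each pair, as it was over all clusters. Over the 2560 clusters above 100 in at least 1 line, the median was 0.61 for L-428 minus L-540. With HDLM-2 as the first line it was -0.16 against L-540 and -0.86 against L-428. In the values as deposited, IRF8 and IRF9 were the members higher in L-428 than in each of the others. IRF9, whose L-428 value was shared with 17 other clusters, lost this place after quantile normalization.

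**Figure D3:**
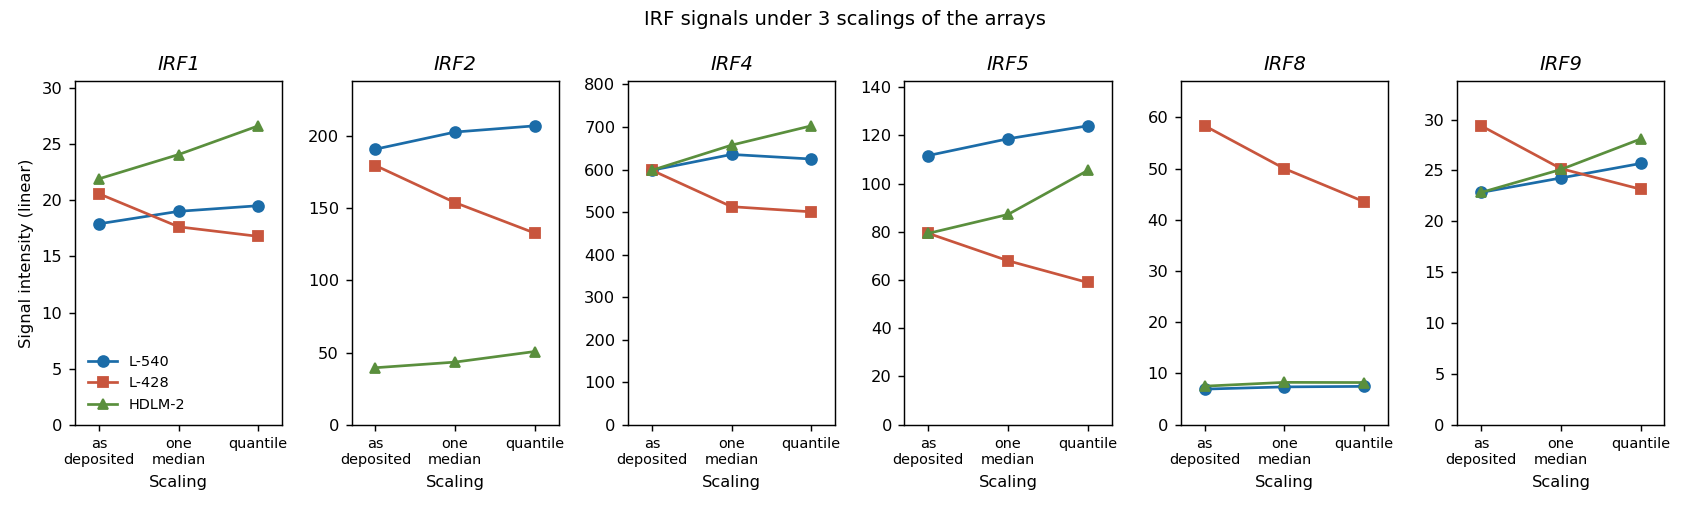
Signal intensity (linear axis from 0) of 6 IRF genes in the 3 lines as deposited, after shifting the arrays to one median and after quantile normalization, with lines joining values of the same array. HDLM-2 stays lowest for IRF2 and L-428 stays highest for IRF8, whereas the tie of IRF4 opens and the order of the lines for IRF9 turns.

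Among the genes next to the IRF genes on the chromosome, the widest range was that of TNPO3, a nuclear import receptor beside IRF5, with 38.6 for HDLM-2, 196 for L-428 and 248 for L-540, a 6.44-fold range. IRF5 itself differed by 1.41-fold at most, and its tie between HDLM-2 and L-428 gives no order of these lines. Beside IRF4, the phosphatase gene DUSP22 had 45.1 in each line, and EXOC2, a subunit of the exocyst, had 32.2 in HDLM-2 and 44.1 in both other lines. COX4I1, a subunit of cytochrome c oxidase next to IRF8, had 18.5 for HDLM-2, 31.7 for L-428 and 23.1 for L-540, a ratio of 1.71 where IRF8 had 8.41. FOXF1 on the other side of IRF8 was lowest in L-428, with 13.1 against 17.9 in both others. RNF31, a subunit of a linear ubiquitin ligase next to IRF9, had 19.0 for HDLM-2, 29.1 for L-428 and 19.0 for L-540, with the same high line and the same tie as IRF9. SCAF1 beside IRF3 had 17.2 in each line, tied as IRF3 was. Such ties were common. HDLM-2 and L-540 were equal in 53.0% of the clusters with 1 gene, and 31.5% of all clusters were tied in all 3 lines. The neighbors of IRF2 had no cluster of their own among those used here.

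Genes that make, sense or answer interferon were read from lists, with 1 cluster per gene. A call needs a signal above 100, so the shares over all clusters given beside calls are low. Among clusters above 100 in at least 1 of the pair, 3.86% were called higher in HDLM-2 than in L-428 and 3.36% than in L-540. HDLM-2 was called lower in 26.4% against L-428 and in 7.23% against L-540. L-428 was called higher than L-540 in 18.2% and lower in 4.22%. Interferons themselves gave low signals. Of 21 interferon genes, 9 had a cluster with 1 gene, and the highest value in any line was 6.21, for IFNA6 in L-540. IFNB1 had 1.62 and IFNG 1.84 in each line. Among 8 measured receptor chains and kinases, only JAK1 and IFNGR2 exceeded 100. JAK1, the kinase shared by interferon receptors, had 133 in L-540 and 125 in both others. IFNGR2, the second chain of the interferon gamma receptor, had 191 for HDLM-2, 23.5 for L-428 and 54.7 for L-540. It was 8.12-fold higher in HDLM-2 than in L-428, and this was the list's 1 call, where 0.427% of all clusters were called higher in HDLM-2 than in L-428.

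Of the sensors, adaptors and kinases that activate IRF3, IRF5 and IRF7, 20 of 23 were measured, and 3 exceeded 100 in at least 1 line. STING1, the adaptor of cytosolic DNA sensing, had 230 for HDLM-2, 53.2 for L-428 and 202 for L-540. L-428 was the low line, with HDLM-2 4.32-fold and L-540 3.80-fold above it, of which the second became a call under both scalings. In HDLM-2 against L-428 it was 1 of 20 genes called higher, against 0.427% of all clusters. Among clusters above 100 in at least 1 of the pair this share was 3.86%. MYD88, the adaptor of most Toll-like receptors, had 135 for HDLM-2, 137 for L-428 and 135 for L-540. SLC15A4, a lysosomal transporter that supports the activation of IRF5, had 88.6, 178 and 97.7 in the same order. The following were chosen after their values were seen. CGAS, the DNA sensor upstream of STING1, had 19.7 for HDLM-2, 94.6 for L-428 and 14.1 for L-540, and TBK1, the kinase that phosphorylates IRF3, had 7.77, 71.6 and 14.5. None of these values passed 100, and no difference of CGAS or TBK1 was called. Over the list, 11 of 20 genes were higher in L-428 than in L-540, 2 were lower and 7 were equal, while 32.1% of all clusters with 1 gene were higher and 19.7% lower. After the shift to one median it was 9 higher and 11 lower. The shift turns every tied gene lower in L-428, here the 7 equal ones, so the balance of the list depends on scaling.

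Partners with which IRF4 and IRF8 bind DNA were measured for all 9 genes of the list. BATF3, an AP-1 factor, had 183 for HDLM-2, 160 for L-428 and 92.3 for L-540. JUNB, an AP-1 factor typically abundant in HL cells, had 496 for HDLM-2, 83.9 for L-428 and 270 for L-540, and its 5.92-fold difference between HDLM-2 and L-428 was the list's call, 1 of 9 where 0.427% of all clusters were called higher in HDLM-2. After quantile normalization JUNB was also called lower in L-428 than in L-540. The ETS partner SPI1 (PU.1) had 12.2, 10.8 and 12.2, and SPIB had 28.7 for HDLM-2, 15.4 for L-428 and 5.68 for L-540. Neither ETS partner exceeded 100, while BATF3 and JUNB did in 2 lines each and TCF3 (E2A), with 113.5 in L-540 and 65.0 in the others, did in 1.

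Of 12 genes linked to IRF4 and IRF8 in B cells and plasma cells, 11 were measured, and differences were called for PRDM1 and MYC. Of the 11 genes, 1 was called lower in HDLM-2 than in L-540 (0.586% of all clusters), 1 was lower in L-428 than in L-540 (0.472%) and 1 was higher in HDLM-2 than in L-428 (0.427%). PRDM1, which encodes the plasma cell repressor BLIMP1 and is activated by IRF4, had 39.0 for HDLM-2, 64.4 for L-428 and 242 for L-540, 6.21-fold higher in L-540 than in HDLM-2. Its 3.76-fold difference between L-540 and L-428 was called under both scalings only. MYC, another target of IRF4 in plasma cells, had 212 for HDLM-2, 39.9 for L-428 and 172 for L-540, so that L-428 was 5.30-fold below HDLM-2 and 4.30-fold below L-540. XBP1, a regulator of secretion, had 128, 110 and 109, and IKZF1, a lymphoid zinc finger factor, had 132, 164 and 100.1, in the same order. The B cell factor PAX5 had 8.03 in each line.

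Of 32 targets of the IRF9 complex, 29 were measured and 4 exceeded 100 in any line, namely IFITM1, XAF1, IFI6 and ADAR, where 2560 of all 22011 clusters did. XAF1, a proapoptotic gene, had 21.5 for HDLM-2, 171 for L-428 and 55.7 for L-540, and its 7.95-fold difference between L-428 and HDLM-2 was the list's call, 1 of 29 where 2.93% of all clusters were called lower in HDLM-2 than in L-428. IFITM1, a membrane protein that restricts viral entry, had 1416 for HDLM-2, 397 for L-428 and 1198 for L-540. It was 3.57-fold lower in L-428 than in HDLM-2, just short of a call in the values as deposited, and it was called under both scalings. The median signal of the list was 9.93 for HDLM-2, 14.1 for L-428 and 8.72 for L-540, and 9 of the 29 genes were tied in all lines.

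Targets of IRF1 were measured for 17 of 21 genes, of which 6 exceeded 100. Those called were the checkpoint ligand genes CD274 and PDCD1LG2, both higher in HDLM-2, with 182 and 518. CD274 had 3.46 in both other lines, and PDCD1LG2 had 17.5 in L-428 and 13.6 in L-540. They were 2 of 17 genes called higher in HDLM-2 than in L-540, where 0.273% of all clusters were, but the list was chosen with these values known and nothing is read from the count. HDLM-2 is also the line in which IRF2 was lowest, and whether these values are related was not tested. The antigen presentation gene TAPBP had 581 for HDLM-2, 355 for L-428 and 355 for L-540, and TAP1 had 193, 119 and 120.2 in the same order. B2M, the light chain of class I molecules, had 356, 108 and 349. CXCL10, an interferon-induced chemokine chosen after its values were seen, had 3.01 for HDLM-2, 71.4 for L-428 and 2.39 for L-540. None of these values passed 100.

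**Figure D4:**
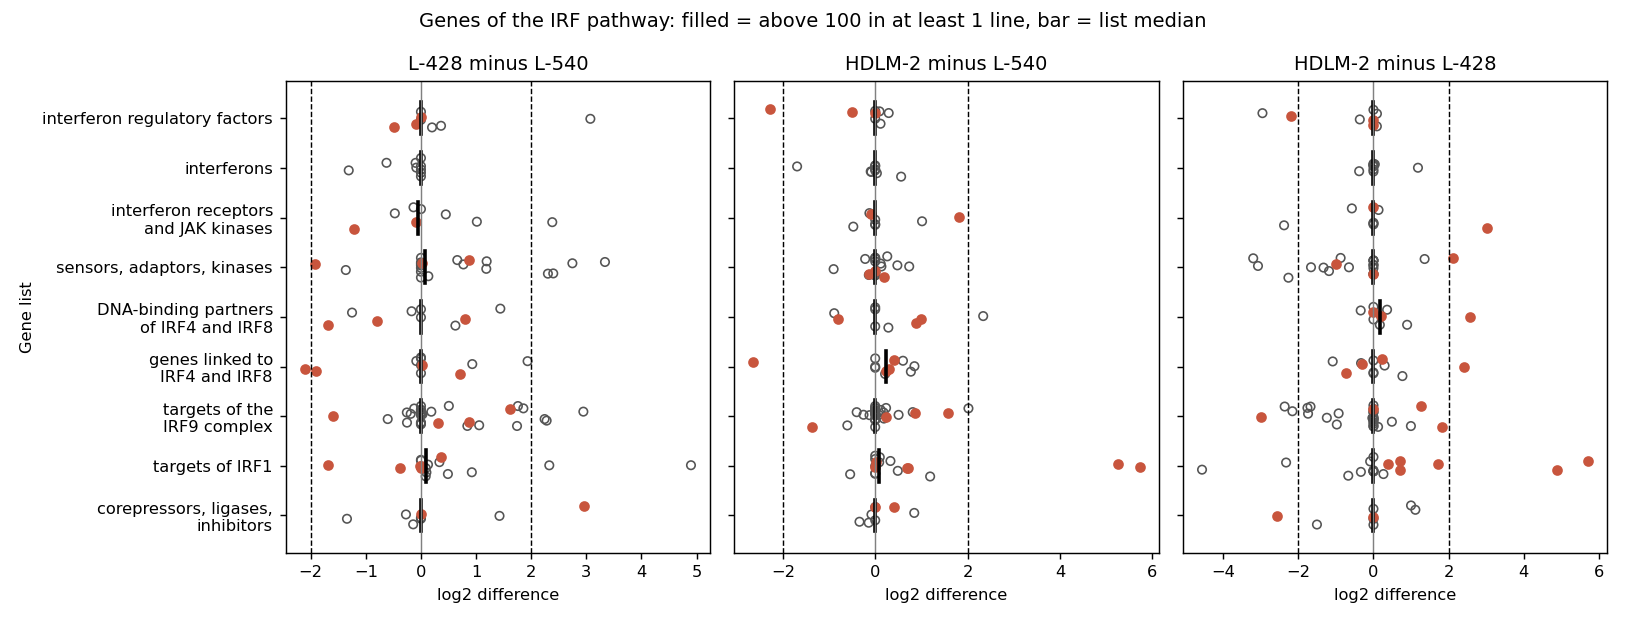
The log2 difference between 2 lines for each measured gene of 9 lists, filled where the gene exceeded 100 in at least 1 line, with a bar at the list median and dashed lines at 4-fold. List medians lie at or near 0 in each panel, and single genes such as CD274 and PDCD1LG2 among the IRF1 targets lie far from the rest.

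Proteins that restrain the family were measured for 8 of 10 genes. The corepressors IRF2BP1 and IRF2BP2, which bind IRF2, had 18.8 and 63.1 in each line, and IRF2BPL had 23.7 for HDLM-2, 11.9 for L-428 and 30.1 for L-540. The ties of IRF2BP1 and IRF2BP2 give no order of the lines. IRF2BPL was lowest in L-428 and IRF2 in HDLM-2, but no IRF2BPL value passed 100. TRIM28, a general corepressor (KAP1), had 112 in each line. TNFAIP3, which encodes the ubiquitin-editing inhibitor A20, had 95.2 for HDLM-2, 561 for L-428 and 72.1 for L-540. L-428 was 7.79-fold above L-540 and 5.90-fold above HDLM-2, and both differences were called, each 1 of 8 genes against 2.04% and 2.93% of all clusters. Among clusters above 100 in at least 1 of the pair, these shares were 18.2% and 26.4%. Quantile normalization removed the call against HDLM-2.

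Markers of cell identity were read beside these values. TNFRSF8, which encodes the HL marker CD30, had 158 for HDLM-2, 145 for L-428 and 158 for L-540, above 100 in each line. Of 7 measured HL cell markers, 5 exceeded 100 in at least 1 line, namely TNFRSF8, the actin bundler FSCN1, the chemokine CCL17, TRAF1 and GATA3. Only TNFRSF8 and FSCN1 did so in every line. CCL17 passed 100 in HDLM-2 alone, with 233, while TRAF1 and GATA3 passed it only in L-428, with 116 and 134. The remaining markers, FUT4 and CD70, stayed below 100 throughout. FUT4 reached at most 24.4, in HDLM-2 and L-540, and CD70 at most 72.6, in L-428. Of 6 measured B cell markers, 9 T cell markers and 7 myeloid markers, none exceeded 100, and the highest values were 27.0, 28.9 and 10.2. The B cell marker CD79A had 3.17 and the myeloid marker CSF1R 5.48 in each line. MS4A1, which encodes CD20, had 8.38 in L-428 and 8.83 in HDLM-2 against 3.03 in L-540. These values lay far below 100 and do not show whether MS4A1 followed IRF8. The T cell marker CD3E had 1.90 for HDLM-2, 1.23 for L-428 and 1.51 for L-540.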

How the data were processed

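The authors hybridized RNA of 3 HL cell lines to Affymetrix Human Exon 1.0 ST arrays, 1 per line, and deposited signal intensity values on the linear scale. Per the labels and the paper, these came from RMA in Affymetrix Expression Console, which corrects the background, normalizes the arrays by quantiles and summarizes the probes of each cluster. According to the submitters' processing notes, the build was hg18. The paper states that RMA was applied jointly to these arrays and to published arrays of blood cells, B cells and a B cell line. The sources used here do not say whether the deposited signals are the output of that joint step. The deposited arrays differ in their medians. Values were used as deposited, without an offset before log2. The platform annotation gave 1 gene for 14432 of the 22011 clusters and several for 2408, and 5171 are unnamed here. Symbols were updated by Entrez identifier in RefSeq (GRCh38.p14), where 14404 of these 14432 were found, and its gene order gave the neighbors. Where a listed gene had several clusters, the one with the highest mean was used. Named genes are the IRF members and, in each list, genes above 100 with a called difference or otherwise a high mean, besides the nearest profiles and neighbors. TNFRSF8, the markers of other cells, the ETS partners, PAX5, IFNB1, IFNG and the corepressors were also named for their roles. FUT4 and CD70 were named as the HL cell markers below the threshold in each line. The members and lists were chosen with earlier results of these data known. The calling rule was run on simulated data with planted folds, which checks its working and not the error of single arrays. Alternatives were other folds and thresholds, an offset of 50, both scalings and single-gene clusters. The number of arrays limits the precision. Computation used matplotlib 3.10.9, pandas 2.3.3, numpy 2.4.6 and Python 3.11.15.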

Additional observations from a re-analysis of the deposited data

How the results depend on the processing

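No paired analysis was possible because the lines have 1 array each, so none of these values has a replicate check. The call of IRF2 in HDLM-2 against L-540, 1 cluster, became 0 at 8-fold, at a threshold of 200 and with an offset of 50 (log2 difference -1.43). Against L-428 it became 0 at 8-fold, at 200, with the offset (-1.36), with one median and with quantile normalization, and 2 clusters, IRF2 and IRF8, were called at a threshold of 50 or with no filter. For L-428 higher than L-540, 1 cluster, IRF8, was called with these last settings. The clusters above 100 were 3 in L-540 but 1 at a threshold of 200. They were 2 in L-428 but 4 at 50 and 1 at 200, and 1 in HDLM-2 but 2 at 50 and with quantile normalization. No called IRF difference changed its direction.

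Over all clusters, 448 were called higher and 104 lower in L-428 than in L-540. At 2-fold these were 975 and 259, and at 8-fold 179 and 51. Without a filter they were 1419 and 229, under the offset 136 and 48, under quantile normalization 215 and 171, and over single-gene clusters 215 and 47. The number higher was 746 at a threshold of 50, 237 at 200 and 291 with one median. For HDLM-2 against L-540, 60 and 129 became 164 and 367 at 2-fold, 108 and 202 at 50, 38 and 72 at 200, 267 and 444 without a filter and 28 and 33 under the offset, and those lower were 45 at 8-fold and 51 over single-gene clusters. For HDLM-2 against L-428, 94 and 644 became 250 and 1172 at 2-fold, 50 and 319 at 8-fold, 259 and 1868 without a filter, 51 and 231 under the offset, 222 and 316 with quantile normalization and 44 and 285 over single-gene clusters. Those higher were 150 with one median, and those lower 1036 at 50 and 357 at 200. The shift to one median moved the median of all clusters by -0.31 for L-428 minus L-540 and by 0.36 for HDLM-2 minus L-428. Fewer clusters can be called with stricter settings, and for the scalings the cause was not tested.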
